A study of Saccharomyces cerevisiae with 10 samples.

Results

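HSP26, HSP42 and HSP104 are the 3 genes described here. They encode the small heat shock proteins of the budding yeast cytosol and the disaggregase that acts with them. The genes were picked with their values on these same arrays known, so their levels are a description and carry no test. All probe rows annotated to them were taken, and all 3 were among the 5415 genes that could be fitted.

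Small heat shock proteins bind proteins that have begun to unfold and hold them in a form from which they can be recovered. Hsp104 is a ring-shaped ATPase that threads proteins out of aggregates, together with Hsp70 and its J-domain partners, and yeast cells need it to survive severe heat and to pass on several prions. Genes of this kind are induced in yeast by the heat shock factor Hsf1 and by the general stress factors Msn2 and Msn4.

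The study compared the transcriptomes of 5 Saccharomyces cerevisiae lines on 10 spotted arrays with 2 dyes. The lines are labelled MA-A3, MA-A4, MA-A0, MA-A1 and MA-A8. MA stands for mutation accumulation, in which lines are carried through repeated bottlenecks so that mutations persist with little selection. Any 2 lines met on 1 array, so that each line lay on 4 arrays, 2 with Cy5 and 2 with Cy3. The labels give no treatment, genotype, medium or number of generations for the lines. Nor do they say whether a line's RNA was prepared once or anew for each array. Errors therefore measure the spread between hybridisations, and the number of arrays limits their precision. In RNA of whole cultures, fewer cells holding an mRNA and less of it in each cell cannot be told apart.

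Each array was centred on its median, and a value was taken as the log2 of Cy5 line over Cy3 line. The base of the logarithm and the direction are not stated by the authors. The order of the lines in the labels makes this direction likely, and the opposite reading would turn every sign below. Folds are given as they would be with base 2. An array is written with its Cy5 line first, as in MA-A0 over MA-A4. A line's level is its fitted distance from the average of the remaining 4, ± the standard error (SE) of the fit, so that a shift in 1 line also enters the others, diluted and with the opposite sign. Values were present for 6282 to 6824 of 7744 probe rows on each array. One array stood apart: for MA-A0 over MA-A8, the measured ratio had the same sign as the mean route through the other 3 lines for 33.9% of genes, against 55.2% to 67.0% on the other 9 arrays. Levels of the 3 genes in MA-A0 and MA-A8 are also given with its 2 lines exchanged or without it.

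Of the 3 genes, HSP26 had the widest range among the lines. It was highest in MA-A3 and lowest in MA-A4, with 2.25 ± 0.20 log2 between them (4.75-fold with base 2). Only 8 of the 5415 genes had a wider range, and the median gene had a range of 0.348. Hsp26 forms large cage-like assemblies that loosen on heating and then bind unfolding proteins. The gene lies on chromosome II (YBR072W) and had 1 probe row.

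On the arrays that carried MA-A3, HSP26 was higher in MA-A3 each time, by 1.72 over MA-A4, 1.51 over MA-A8, 1.37 over MA-A1 and 0.66 over MA-A0. MA-A4 was lower each time, with -2.29 against MA-A0, -1.72 against MA-A3, -1.04 against MA-A8 and -0.93 against MA-A1. Both lines thus moved the same way on all 4 of their arrays, with both dyes. The remaining 3 pairs were 0.63 for MA-A0 minus MA-A1, 0.61 for MA-A0 minus MA-A8 and 1.03 for MA-A8 minus MA-A1. The ratio of MA-A0 over MA-A4 was the 4th highest of the 5234 genes measured on that array, and that of MA-A4 over MA-A8 the 8th lowest of 5414.

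The fitted HSP26 levels were 1.32 ± 0.16 in MA-A3, 0.72 ± 0.16 in MA-A0, -0.01 ± 0.16 in MA-A8, -0.53 ± 0.16 in MA-A1 and -1.50 ± 0.16 in MA-A4. No gene tested had a lower level than HSP26 in MA-A4. In MA-A0 5 genes were higher and in MA-A3 18 genes were higher. All neighbours in this order differed by more than 2 SE, with MA-A1 minus MA-A8 the closest at -0.41 ± 0.20, but not every gap kept its size. MA-A1 minus MA-A8 was -0.07 without MA-A8 over MA-A1, and MA-A0 minus MA-A3 was -0.22 without MA-A8 over MA-A3, against -0.48 ± 0.20 with all arrays. With the lines of MA-A0 over MA-A8 exchanged, HSP26 was at 0.54 in MA-A0 and 0.16 in MA-A8. Without that array the levels were 0.80 and -0.10. MA-A0 minus MA-A8 was 0.58 ± 0.20 as labelled, 0.30 with the lines exchanged and 0.096 with the values of that array negated. The order was the same in 20 of 20 alternative settings. Those with no dye term, the robust prior, unmoderated variances or another limit on missing arrays change only the errors, so they could not alter it.

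HSP42 shared the high level in MA-A3 but not the rest of the order. Hsp42 is the small heat shock protein that is present in unstressed cells too, and it gathers misfolded proteins into deposits at the cell periphery. Its gene lies on chromosome IV (YDR171W) and had 1 probe row. HSP42 was higher in MA-A3 on all 4 of that line's arrays, by 1.29 over MA-A4, 1.18 over MA-A1, 1.12 over MA-A8 and 0.71 over MA-A0. It was lower in MA-A1 on all 4 of its arrays, with -1.18 against MA-A3, -0.57 against MA-A8, -0.33 against MA-A0 and -0.22 against MA-A4. The other 3 pairs were 0.80 for MA-A0 minus MA-A4, -0.83 for MA-A0 minus MA-A8 and 0.05 for MA-A4 minus MA-A8, and these 3 did not join into one order.

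The fitted HSP42 levels were 1.08 ± 0.17 in MA-A3, 0.06 ± 0.17 in MA-A8, -0.10 ± 0.17 in MA-A0, -0.46 ± 0.17 in MA-A4 and -0.58 ± 0.17 in MA-A1. MA-A3 stood 0.81 ± 0.21 above MA-A8, the next line down. Each of the lower 4 lines lay within 2 SE of the next in this order, but MA-A1 minus MA-A8 was -0.51 ± 0.21. The range was 1.32 ± 0.21 (2.50-fold with base 2), which 58 genes exceeded. MA-A3 was highest in 20 of 20 alternative settings, while the whole order was kept in 14. As for HSP26, some of these settings change only the errors and could not alter the order. With the lines of MA-A0 over MA-A8 exchanged, HSP42 was at 0.35 in MA-A0 and -0.39 in MA-A8, so that these lines changed places. Without that array they were at 0.22 and -0.27.

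HSP104, on chromosome XII (YLL026W), showed no order of lines beyond its spread. The array carried it on 33 rows: 1 row among the other genes and 32 repeated control rows, 2 of which were empty. The mean over rows was 0.77 on MA-A0 over MA-A4, 0.70 on MA-A8 over MA-A1, -0.71 on MA-A0 over MA-A8 and -0.36 on MA-A3 over MA-A0. It lay between -0.23 and 0.08 on the other 6 arrays. The values far from 0 were thus on arrays with MA-A0 or MA-A8, but most arrays carried one of these lines. Among those, MA-A1 over MA-A0 (0.08), MA-A4 over MA-A8 (0.07) and MA-A8 over MA-A3 (-0.10) were near 0. The fitted levels were 0.31 ± 0.17 in MA-A8, 0.08 ± 0.17 in MA-A0, -0.00 ± 0.17 in MA-A3, -0.18 ± 0.17 in MA-A1 and -0.21 ± 0.17 in MA-A4. No neighbours in this order differed by more than 2 SE, nor did the ends, which were 0.41 ± 0.22 apart. In MA-A3, where HSP26 and HSP42 were at 1.32 and 1.08, HSP104 was thus near 0. A wider range was found for 2017 genes.

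The order for HSP104 was kept in 8 of 20 alternative settings. Those that change only the errors could not alter it. Of the others, only those without MA-A1 over MA-A4, MA-A4 over MA-A8 or MA-A8 over MA-A1 kept it. With the lines of MA-A0 over MA-A8 exchanged HSP104 was highest in MA-A0, at 0.49, and was -0.10 in MA-A8. Without MA-A0 over MA-A8 it was 0.36 in MA-A0 and 0.04 in MA-A8, and without MA-A0 over MA-A4 it was -0.18 in MA-A0. The range was 0.79 without MA-A4 over MA-A8 and 0.30 without MA-A8 over MA-A1.

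**Figure D1:**
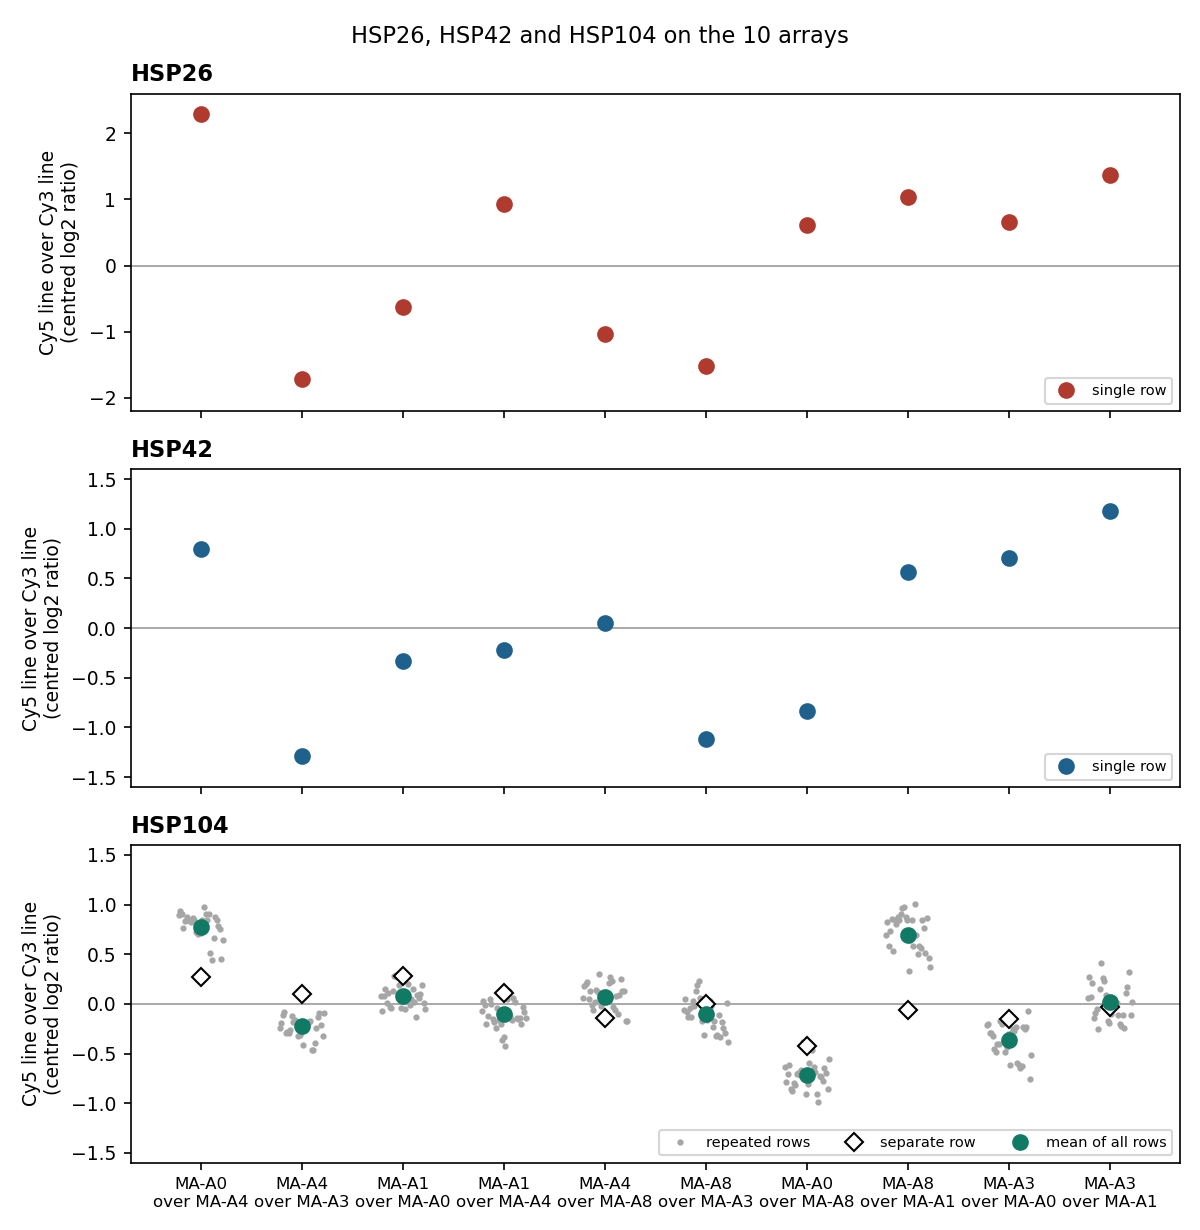
Centred log2 ratios (y axis, Cy5 line over Cy3 line) of HSP26, HSP42 and HSP104 on each of the 10 arrays (x axis). Filled circles are the gene's value. In the HSP104 panel grey points are the repeated control rows and open diamonds the separate row, which lies outside the cloud of repeated rows on MA-A0 over MA-A4, MA-A4 over MA-A3 and MA-A8 over MA-A1.

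**Figure D2:**
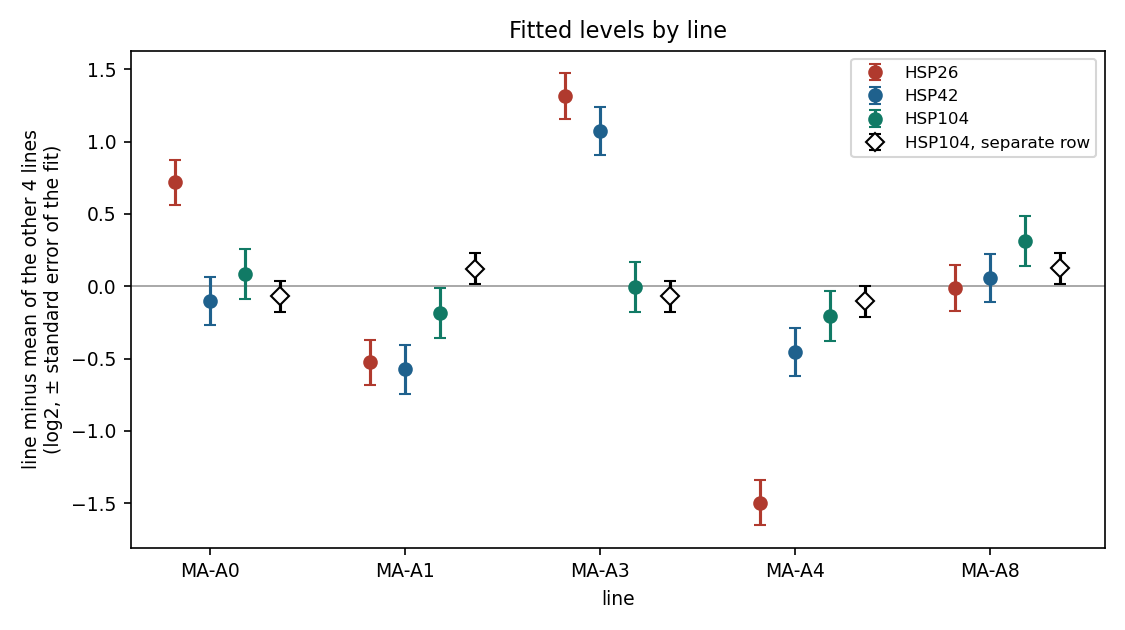
Fitted levels (y axis, line minus the mean of the other 4 lines, log2) of the 3 genes in each line (x axis), with bars of 1 SE of the fit, and of the separate HSP104 row as open diamonds. HSP26 and HSP42 both lie above 1 in MA-A3, HSP26 alone lies near -1.50 in MA-A4, and all HSP104 levels lie between -0.21 and 0.31.

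The 2 kinds of HSP104 row did not give the same values. The repeated rows were close to one another, with a standard deviation (SD) over 29 or 30 rows from 0.10 to 0.19 on the 10 arrays. On MA-A0 over MA-A4 the separate row was at 0.27, below all 29 repeated rows, which ran from 0.44 to 0.98. On MA-A8 over MA-A1 it was at -0.06, below all 30 repeated rows, which ran from 0.33 to 1.01. On MA-A4 over MA-A3 it was at 0.10, above all 30 repeated rows, which ran from -0.46 to -0.08. On MA-A0 over MA-A8 both were low, with -0.42 for the separate row and a mean of -0.72 for the repeated rows.

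Over the 10 arrays, the cosine between the separate row and the mean of the repeated rows was 0.58. The cosine, used here as the measure of likeness, is 1 for ratios in exact proportion and does not depend on which line of an array is on top. Across the 12 genes spotted as such controls, it was lower only for the nucleoporin genes NUP82 (0.25) and NUP159 (0.51), and the other 9 ran from 0.75 for ACT1 to 0.98 for TDH2. The ratios of NUP82 and NUP159 were small, with root mean squares of 0.104 and 0.227 over the arrays, against 0.435 for HSP104. The root mean square difference between the 2 kinds of row was 0.359 for HSP104, within the 0.156 to 0.394 of the 12 genes. By the separate row alone the HSP104 levels ran from -0.10 ± 0.11 in MA-A4 to 0.12 ± 0.11 in MA-A8, with a residual SD of 0.216 against 0.506 for the repeated rows. By either kind of row, no neighbouring lines differed by more than 2 SE. Why the rows differ was not tested.

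With every pair of lines on an array, each ratio can be set against the sum of the ratios along a route through another line. For HSP42, MA-A0 minus MA-A8 was -0.83 on the direct array but 0.85 through MA-A4, a gap of 1.68. Only 0.273% of the 5131 genes with values on all 10 arrays had a larger gap in this loop of MA-A0, MA-A4 and MA-A8, where the median gene had 0.34. For HSP104 the direct value was -0.71 and the route through MA-A4 gave 0.84, a gap of 1.55 that 0.604% of genes exceeded. For HSP26 the direct value of 0.61 and the route of 1.25 through MA-A4 had the same sign, with a gap of 0.64 that 19.8% of genes exceeded. Through MA-A3 the route gave 0.85, but through MA-A1 it gave -0.40.

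Exchanging the lines of the direct array would have left gaps of 0.02 for HSP42 and 0.12 for HSP104 in that loop, but 1.86 for HSP26. In the loop through MA-A3, route minus direct was likewise closer to 0 with the lines exchanged for HSP42 (-0.42, against 1.24 as labelled) and HSP104 (-0.26, against 1.17), but not for HSP26 (1.46, against 0.24). The loop through MA-A1 went the other way for all 3, with 0.21 exchanged and -1.01 as labelled for HSP26, -1.07 and 0.59 for HSP42, and -1.49 and -0.07 for HSP104. No single reading of MA-A0 over MA-A8 thus gave the smaller gap in all 3 loops for any of the 3 genes. The routes did not all go one way for HSP104: through MA-A1, MA-A0 minus MA-A8 was -0.78, close to the direct -0.71, and through MA-A3 it was 0.46. For HSP42 the routes through MA-A1 and MA-A3 gave -0.24 and 0.41. Averaged over the 3 routes, MA-A0 minus MA-A8 was 0.57 for HSP26, 0.34 for HSP42 and 0.17 for HSP104.

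Over all 10 pairs of lines, the direct ratio and the mean of its 3 routes had the same sign 9 times for HSP26, 7 times for HSP42 and 3 times for HSP104. HSP26 also had gaps over 1, in 3 loops, and its largest was 1.23 among MA-A0, MA-A3 and MA-A4. In the loop of MA-A1, MA-A3 and MA-A8 its gap was 1.17, which 0.331% of genes exceeded.

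The line levels and the dye effect left 5.94% of the variation over arrays unaccounted for in HSP26, 17.3% in HSP42 and 68.0% in HSP104, against 34.2% in the median gene. The residual SDs of the 3 genes were nonetheless alike, at 0.438 for HSP26, 0.478 for HSP42 and 0.495 for HSP104, and 3.77%, 2.70% and 2.27% of genes had a larger one. The largest residual of HSP26 was on MA-A8 over MA-A3, which measured -1.51 where the fit gave -0.86, and without that array its residual SD was 0.175. The largest residuals of HSP42 and HSP104 were both on MA-A0 over MA-A8, where -0.83 and -0.71 were measured and -0.18 and -0.17 fitted. Without that array their residual SDs were 0.268 and 0.397.

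**Figure D3:**
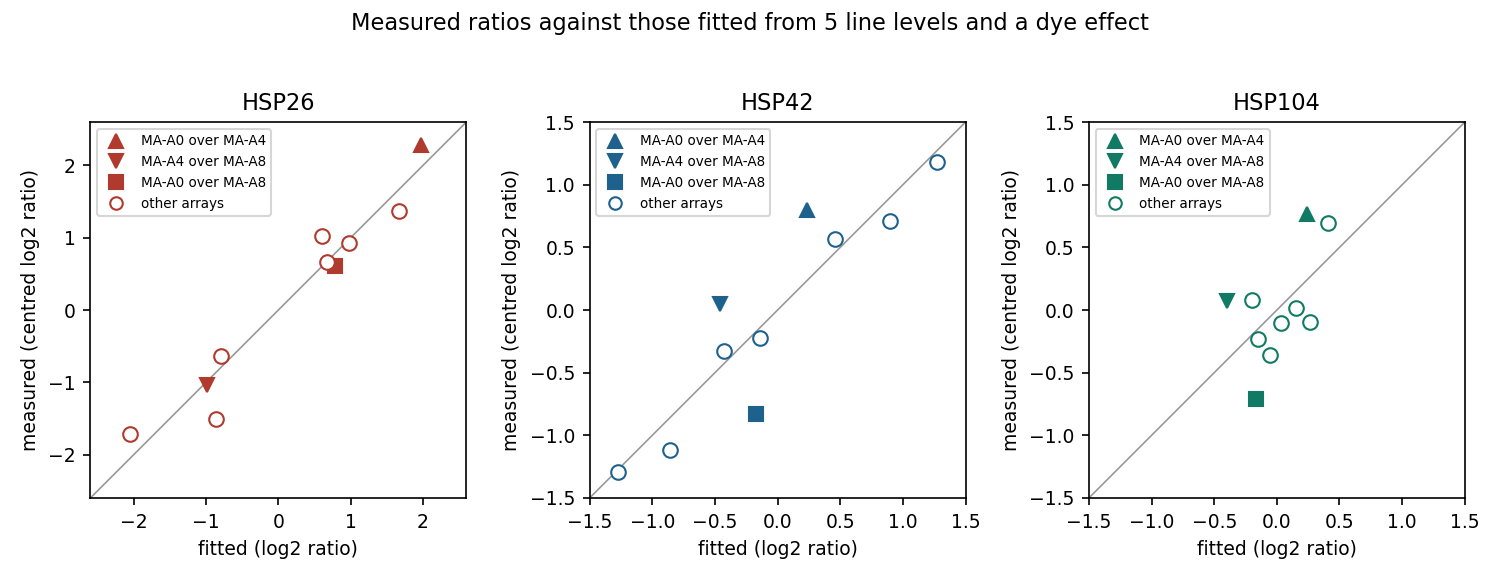
Measured log2 ratio of each array (y axis) against the ratio fitted from 5 line levels and a dye effect (x axis) for HSP26, HSP42 and HSP104, with the diagonal of equality. Filled marks are the 3 arrays of the MA-A0, MA-A4 and MA-A8 loop. HSP26 has the widest spread along the diagonal, with its farthest point, MA-A8 over MA-A3, measured at -1.51 and fitted at -0.86. MA-A0 over MA-A8 (square) lies below the diagonal for HSP42 and HSP104, by 0.65 and 0.54.

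HSP26 and HSP42 were more like each other than either was like HSP104. Their cosine over the 10 arrays was 0.75, which placed HSP42 73rd among the 5130 other genes with values on every array. The cosine was 0.51 between HSP42 and HSP104 (629th) and 0.39 between HSP26 and HSP104 (901st). With the separate HSP104 row alone it was 0.08 with HSP42 (1959th) and 0.02 with HSP26 (2383rd). What the fit left over ordered the pairs otherwise. The cosine of residuals was 0.95 between HSP42 and HSP104 (21st), 0.62 between HSP26 and HSP104 (631st) and 0.50 between HSP26 and HSP42 (987th). All these values share the same 10 arrays and are a description.

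The gene most like HSP26 over the arrays was FMP46, on chromosome XI, which encodes a mitochondrial protein (cosine 0.95). FMP46 was at 0.46 ± 0.10 in MA-A3 and -0.61 ± 0.10 in MA-A4. Next came the cell wall protein gene SCW10, AIM19, the GMP synthase gene GUA1 and the proteinase A inhibitor gene PAI3, with cosines from 0.93 to 0.91. No heat shock gene was among these 5. SCW10, GUA1 and PAI3 lie on chromosome XIII, which holds 7.87% of genes. AIM19 lies on chromosome IX, whose median was -0.245 in MA-A4, where HSP26 was lowest, and 0.0525 to 0.095 in the other lines. With chromosome XIII left out, the genes most like HSP26 were FMP46, AIM19, VHS2, KGD1 and ASP3-2, with cosines from 0.95 to 0.86. Of them AIM19, VHS2 and KGD1 lie on chromosome IX.

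All 5 genes most like HSP42 lie on chromosome XIII: MRPL39, for a mitochondrial ribosomal protein, GSR1, the alcohol dehydrogenase gene ADH6, the dihydroxyacetone kinase gene DAK1 and POB3, for a subunit of the histone chaperone FACT. Their cosines ran from 0.93 to 0.94 and their levels in MA-A3 from 0.46 to 0.62. The median of the 427 genes of chromosome XIII was 0.55 in MA-A3 and between -0.17 and -0.10 in the other lines, and HSP42 was likewise high in MA-A3. With chromosome XIII left out, the genes most like HSP42 were ROQ1, which encodes a stress-induced partner of the ubiquitin ligase Ubr1 (0.93), KGD1, HRK1, the Hsp110 gene SSE2 (0.88) and RIE1. BTN2, for an aggregate-sorting protein that works with Hsp42, ranked 50th with 0.86.

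The genes most like HSP104 were PEX28 (0.96), UBX5 (0.93), NAB2 (0.90), UFD1 (0.88) and HSP78 (0.88). Ubx5 and Ufd1 are cofactors of the ATPase Cdc48, which draws ubiquitin-marked proteins out of complexes, and Hsp78 is the mitochondrial relative of Hsp104. A cosine takes no account of size: the ratios of PEX28 lay between -0.29 and 0.30, and its level was 0.16 ± 0.10 in MA-A8. HSP78 was nearer to HSP104 in size, at 0.74 on MA-A0 over MA-A4 and -0.69 on MA-A0 over MA-A8, against 0.77 and -0.71 for HSP104. The F test did not call HSP78 (adjusted p = 0.231). Without MA-A0 over MA-A8, 2 of the 5 were still among the nearest to HSP104. By the separate row alone the nearest genes were others, led by RDS3 (0.83).

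None of the 3 genes lies on chromosome XIII, and the chromosomes they lie on shifted little or in another line. The medians of chromosomes II and IV lay between -0.05 and 0.04 in all 5 lines. Chromosome XII had a median of 0.27 in MA-A1, where HSP104 was at -0.18, so that HSP104 was -0.46 relative to the other genes of its chromosome there. Relative to them HSP104 was at 0.39 in MA-A8. By the separate HSP104 row alone, the level in MA-A1 was 0.12 ± 0.11, higher on all 4 of that line's arrays. Relative to the other genes of the chromosome, that row was at -0.15 in MA-A1 and 0.20 in MA-A8. The nearest fitted genes on either side of HSP26, YBR071W and RDH54, were at -0.01 and -0.13 in MA-A3, against 1.32 for HSP26. In MA-A4 they were at 0.31 and -0.08, against -1.50. On either side of HSP42 the nearest fitted genes were YDR170W-A and the translation termination factor gene SUP35. They were at -0.35 and -0.16 in MA-A3, against 1.08 for HSP42. Gene order was taken from the R64 annotation of S. cerevisiae, and genes that were not fitted were skipped.

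Other genes of protein quality control and stress were tested in the same fit, in 7 lists that were also drawn up with results of these arrays known. A gene was called where the F test across the 5 lines, or the test of 1 line against the other 4, gave an adjusted p under 0.05 in the limma fit. The F test called 19.1% of all 5415 genes. It called 4 of 10 Hsp70 disaggregation partners, 2 of 10 genes of the Hsp90 system, 2 of 8 mitochondrial chaperones and Clp relatives, 1 of 9 aggregate-sorting and prion protein genes, 2 of 13 regulators of the stress response and 1 of 10 genes of ubiquitin quality control. It called 20 of 25 general stress genes. With unmoderated variances, the F test called none of the 16 list genes that are named below and passed it, with adjusted p-values from 0.0504 for HSP12, MSC1 and PGM2 to 0.355 for CPR6. The unmoderated tests of MA-A3 against the other 4 lines still called 15 general stress genes, 3 regulators and 1 aggregate-sorting gene higher and 1 mitochondrial chaperone gene lower.

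Of the Hsp70 partners with which Hsp104 works, 3 of 10 were called higher in MA-A3 and 1 lower, against 10.8% and 6.46% of all genes. The higher ones were APJ1 (0.59 ± 0.12, F test adjusted p = 0.0287), a J-domain protein gene, SSE2 (0.48 ± 0.13, 0.0333) and the nucleotide exchange factor gene FES1 (0.45 ± 0.12), which the F test did not call (0.0709). The lower one was SSE1, the major Hsp110 gene, at -0.40 ± 0.12 in MA-A3 and 0.58 ± 0.12 in MA-A8 (F test adjusted p = 0.0157). SIS1, for the J-domain protein that many prions need beside Hsp104, was called lower in MA-A1 (-0.47 ± 0.11, F test adjusted p = 0.0231).

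SSA1 and YDJ1, for a cytosolic Hsp70 and its J-domain partner, were not called (F test adjusted p = 0.197 and 0.224). Nor was SSA4, the heat-induced Hsp70 gene (adjusted p = 0.201), at 0.62 ± 0.33 in MA-A3 and 0.68 ± 0.33 in MA-A8. Its ratios were as wide as those of HSP26, from -2.48 on MA-A4 over MA-A3 to 1.58 on MA-A8 over MA-A1, but its residual SD was 1.07. SSA1 and its near copy SSA2 may share signal on such probes. Without MA-A8 over MA-A1 the F test called none of APJ1, SSE2, SSE1 and SIS1 (adjusted p = 0.0538, 0.0842, 0.063 and 0.256). APJ1 and SSE2 were also lost without MA-A3 over MA-A1 (0.192 and 0.14), MA-A3 over MA-A0, MA-A1 over MA-A4 or MA-A8 over MA-A3, SSE2 without MA-A1 over MA-A0, and SIS1 without MA-A1 over MA-A4 or MA-A3 over MA-A0. The 3 genes called higher in MA-A3 were 0 without MA-A3 over MA-A1, 1 without MA-A8 over MA-A3, and 0 as deposited or with unmoderated variances. SSE1 was at 0.39 in MA-A8 without MA-A0 over MA-A8, and its F test call ended with the lines of that array exchanged (0.103).

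In MA-A3, where HSP26 and HSP42 were high, 4 of 10 genes of the Hsp90 system were called lower and 0 higher, against 6.46% and 10.8% of all genes, with a list median of -0.23 against -0.01 over all genes. Called lower were the cochaperone genes CPR6 (-0.60 ± 0.18), STI1 (-0.58 ± 0.19), AHA1 (-0.48 ± 0.13) and HCH1 (-0.41 ± 0.12). The F test called CPR6 (0.0414) but not AHA1 (0.051), STI1 (0.0515) or HCH1 (0.145). The CPR6 call ended without MA-A1 over MA-A4 (0.0749), MA-A3 over MA-A0 (0.103), MA-A3 over MA-A1 (0.107) or MA-A8 over MA-A1 (0.14). The count of 4 was 0 without MA-A4 over MA-A3, MA-A3 over MA-A0 or MA-A3 over MA-A1, 1 without MA-A1 over MA-A4 and 2 without MA-A8 over MA-A1. It was also 0 as deposited or with unmoderated variances, 1 without the dye term, and 2 with the robust prior or block centring. In MA-A8 the list median was 0.28, and HSP82, the inducible Hsp90 gene, was the only one called, at 0.52 ± 0.12 (F test adjusted p = 0.0204), against 1.27% of all genes. HSP82 and its near copy HSC82 may share signal. The HSP82 call ended without MA-A8 over MA-A1 (adjusted p = 0.173), MA-A3 over MA-A0 (0.0539) or MA-A3 over MA-A1 (0.052). The test of MA-A8 alone called 0 genes of this list as deposited, unmoderated, without the dye term, or with MA-A0 over MA-A8 exchanged, negated or left out. With the lines of MA-A0 over MA-A8 exchanged, the Hsp90 median was 0.35 in MA-A0 and 0.03 in MA-A8.

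Among the mitochondrial chaperones, 3 of 8 were called lower in MA-A3 and 0 higher, against 6.46% and 10.8% of all genes. They were HSP60 (-0.42 ± 0.13, not called by the F test at 0.184), SSC1 (-0.35 ± 0.11) and ECM10 (-0.34 ± 0.09). SSC1, the main mitochondrial Hsp70 gene, was also called higher in MA-A8 (0.45 ± 0.11, F test adjusted p = 0.0103), the F test call ending without MA-A8 over MA-A1 (0.0739). The test of MA-A8 alone did not call SSC1 without any 1 of 8 arrays, those other than MA-A0 over MA-A4 and MA-A4 over MA-A3. Nor did it with the lines of MA-A0 over MA-A8 exchanged, its values negated, no dye term, values as deposited or unmoderated variances. ECM10, its rarer copy, had an F test adjusted p of 0.0358 and was lost without any 1 of 8 arrays, those other than MA-A0 over MA-A4 and MA-A0 over MA-A8, with values up to 0.265. The count of 3 was 0 without MA-A4 over MA-A3, MA-A3 over MA-A0 or MA-A3 over MA-A1, 1 without MA-A1 over MA-A4, and 2 without MA-A1 over MA-A0, MA-A4 over MA-A8, MA-A8 over MA-A3 or MA-A8 over MA-A1. It was also 0 as deposited and 1 with unmoderated variances or no dye term. MDJ1 and MGE1, for the partners of Ssc1, were not called (0.0762 and 0.0906).

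BTN2 was the one aggregate-sorting gene called. BTN2 was higher in MA-A3 on all 4 of its arrays, as HSP26 and HSP42 were, with 0.87 on MA-A3 over MA-A0, -1.22 on MA-A4 over MA-A3 and -0.46 on MA-A8 over MA-A3. Its level there was 0.89 ± 0.12 (F test adjusted p = 0.00111), and without any 1 array it lay between 0.77 and 1.01. Its paralogue CUR1, at -0.01 ± 0.10 in MA-A3, was not called (adjusted p = 0.132). HSP31 and HSP32, of a family with near-identical copies, were not called either (0.0532 and 0.282).

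Of the regulators of the stress response, 13 were tested. MSN2, for the general stress factor, was at 0.81 ± 0.11 in MA-A3 (F test adjusted p = 0.00157), but it lies on chromosome XIII, whose median there was 0.55. MSN2 was also called lower in MA-A8 (-0.47 ± 0.11), where that median was -0.17, but not there without MA-A8 over MA-A3, MA-A0 over MA-A8, MA-A8 over MA-A1 or MA-A3 over MA-A1, nor with MA-A0 over MA-A8 exchanged or negated, without the dye term, as deposited or with unmoderated variances. MSN4, for its partner factor, and HSF1 were not called (0.153 and 0.247), with levels of 0.07 ± 0.10 and 0.06 ± 0.09 in MA-A3. GIS1 (0.34 ± 0.09), YAK1 (0.44 ± 0.10) and WHI2 (0.36 ± 0.11) were called higher in MA-A3 too, the F test calling GIS1 (0.0344) but not YAK1 (0.0524) or WHI2 (0.0907). The GIS1 call ended without any 1 of 8 arrays, those other than MA-A0 over MA-A4 and MA-A0 over MA-A8, with adjusted p-values from 0.0569 to 0.191. Values as deposited, without centring, ended 12 of the 16 F test calls of named list genes. Among them were those of BTN2 (0.0703), MSN2 (0.169) and GIS1. Without the dye term 7 of the 16 ended, that of GIS1 included (0.0857).

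In the ubiquitin list the F test called UBC5, for a conjugating enzyme of misfolded proteins (adjusted p = 0.0303). The test of MA-A1 against the other 4 lines called UBC5 lower there (-0.41 ± 0.09, adjusted p = 0.027). The F test call of UBC5 ended without any 1 of 7 arrays, with adjusted p-values from 0.0506 to 0.141. These arrays were all but MA-A0 over MA-A4, MA-A0 over MA-A8 and MA-A4 over MA-A8. RPN4, for the factor that induces proteasome genes, was called higher in MA-A3 (0.44 ± 0.12) but not by the F test (0.0535). SAN1 and CDC48 were not called (0.106 and 0.141).

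The general stress genes are in the main targets of Msn2 and Msn4. This list too was drawn up with results of these arrays known, so its counts in every line are a description. In MA-A3, where HSP26 and HSP42 were high, 20 of 25 were called higher and 0 lower, against 10.8% and 6.46% of all genes, with a median of 0.95. HSP12, for a small membrane-binding protein, was at 2.61 ± 0.17 (F test adjusted p = 1.85e-06), DDR2 at 2.64 ± 0.17, MSC1 at 2.12 ± 0.12 and the phosphoglucomutase gene PGM2 at 1.88 ± 0.13. The last 3 had F test adjusted p-values of 7.69e-06, 2.01e-06 and 7.75e-06. MSC1 and PGM2 lie on chromosome XIII, whose median in MA-A3 was 0.55. Every gene of this list on that chromosome was called higher in MA-A3, at levels from 1.435 to 2.12, above the list median.

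In MA-A8 16 of the 25 were called lower and 0 higher, against 2.03% of all genes, with a median of -0.60. HSP12 was at -2.24 ± 0.17 there, while HSP26 and HSP42 were at -0.01 ± 0.16 and 0.06 ± 0.17. In MA-A4, where no gene was lower than HSP26, 3 of the 25 were called lower and 0 higher (1.9% and 1.63% of all genes) and the median was -0.09. In MA-A0, where HSP26 was at 0.72, 0 of the 25 were called either way (0.222% and 0.111% of all genes) and the median was 0.00. In MA-A1, where HSP26 and HSP42 were at -0.53 and -0.58, 5 were called lower and 0 higher (1.7% and 2.51% of all genes) and the median was -0.25.

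The count of 16 in MA-A8 was 8 without MA-A8 over MA-A3 and 0 with the lines of MA-A0 over MA-A8 exchanged, where the median was -0.46. It was also 0 with unmoderated variances, 6 with that array negated, 8 as deposited and 13 without the dye term. The count of 5 in MA-A1 was 0 without any 1 of that line's 4 arrays, 1 without MA-A3 over MA-A0 and 9 without MA-A0 over MA-A8. The count of 3 in MA-A4 was 0 without MA-A0 over MA-A4, MA-A1 over MA-A4 or MA-A4 over MA-A8, and 1 without MA-A4 over MA-A3 or MA-A1 over MA-A0. The count of 16 was also 11 without MA-A4 over MA-A8 or MA-A8 over MA-A1 and 14 without MA-A0 over MA-A8. Over the arrays, the cosine of HSP12 was 0.58 with HSP26 (345th), 0.64 with HSP42 (400th) and -0.13 with HSP104 (2916th).

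**Figure D4:**
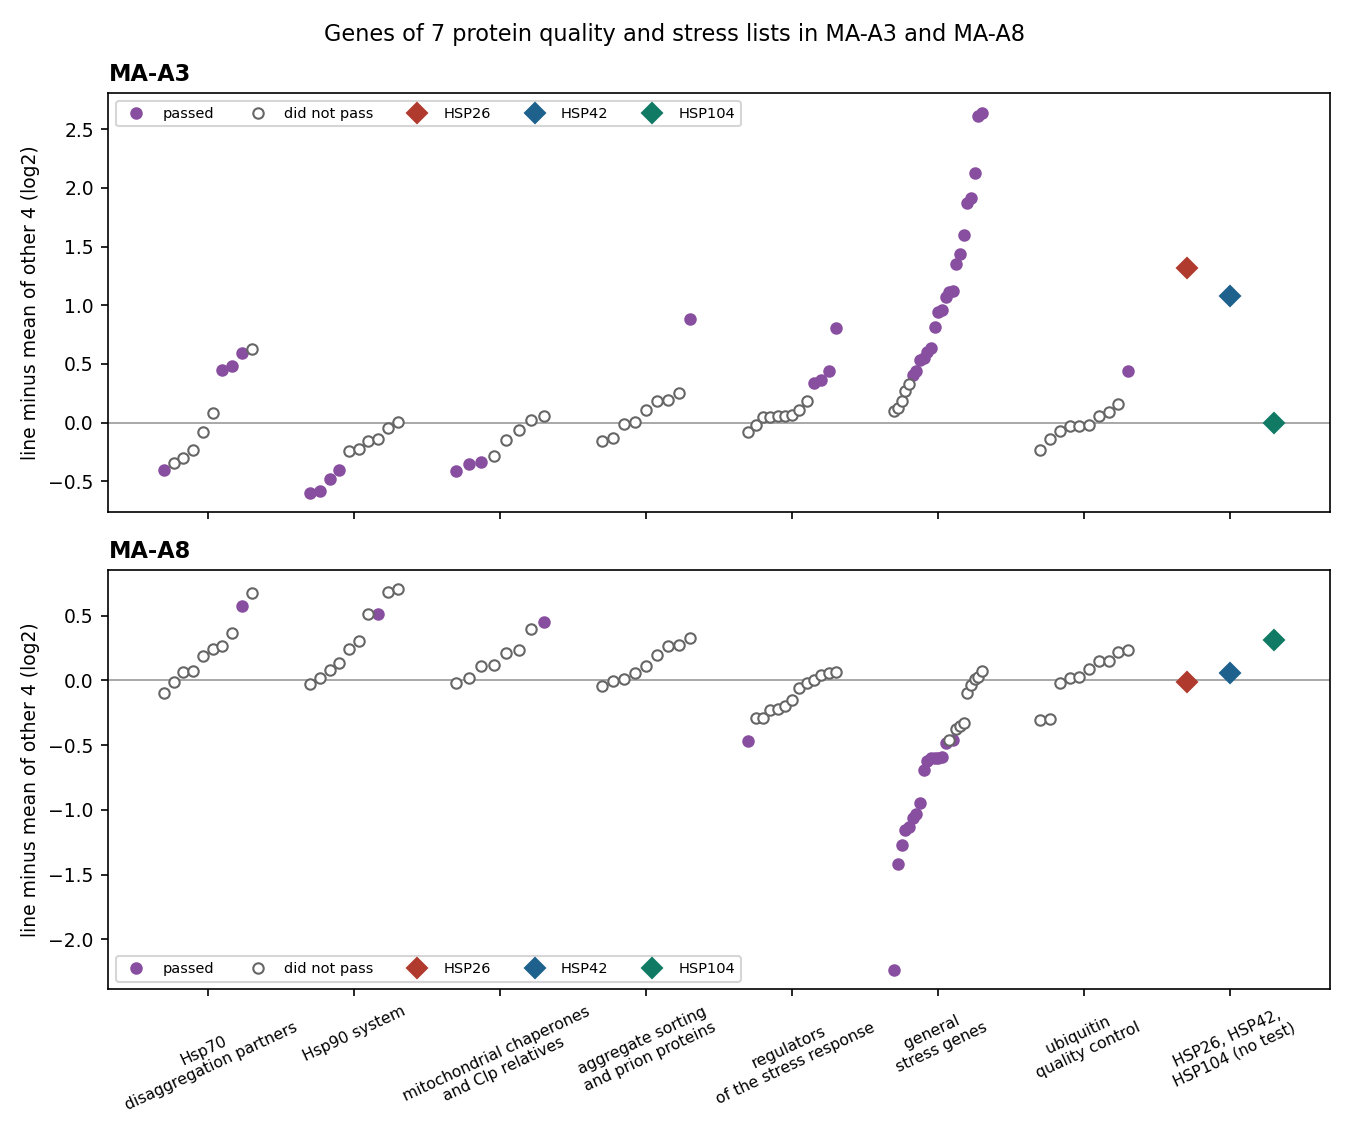
Fitted levels (y axis, line minus the mean of the other 4 lines, log2) of every tested gene in 7 lists (x axis) in MA-A3 (top) and MA-A8 (bottom). Filled circles passed the test of that line at an adjusted p of 0.05 and open circles did not, and diamonds are HSP26, HSP42 and HSP104, which were not tested. In MA-A3 HSP26 and HSP42 lie among the general stress genes, and in MA-A8 they lie near 0 while 16 of those 25 genes passed below it.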

How the data were processed

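Each array gave 1 value per probe row, deposited by the authors as a log ratio and read here as log2, since neither base nor direction is stated. How the arrays were scanned, filtered and normalized is not given in the sources read. The array annotation named a gene for 6116 of 7744 rows, and 6111 matched the R64 gene table, used for symbols and gene order only. Array medians over named rows ran from -0.86 to 0.45, so each array was centred on its median. Rows of a gene were averaged. The 5415 genes measured on 8 or more arrays were fitted with limma 3.58.1 in R 4.3.3. The model held line levels and 1 dye term, with 5 residual degrees of freedom. Variances were moderated (prior degrees of freedom 8.87), and p-values were Benjamini-Hochberg adjusted over all 5415 genes at 0.05. The fit was tested on simulated data. The cosine was taken over genes with values on all 10 arrays.

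The 3 genes, the 7 lists and the tests were chosen with earlier results of these data known. Named are the 3 genes, the 5 genes with the highest cosine to each, the 4 genes of each list with the smallest F test p-value, and SSA1, SSA4, YDJ1, SIS1, SSE1, HSP78, BTN2, HSF1, MSN2 and MSN4. Named outside that rule, after their values were seen, are list genes that complete a count (FES1, HCH1, HSP60), neighbouring genes, control genes, genes most like the separate HSP104 row and those left without chromosome XIII. Sequences are not used here.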

Additional observations from a re-analysis of the deposited data

How the results depend on the processing

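Leaving out 1 array at a time gave ranges among the lines of 1.99 to 2.51 for HSP26, 1.22 to 1.43 for HSP42 and 0.30 to 0.79 for HSP104. The other alternatives gave ranges within these limits. For HSP104 the limits are wide beside its range of 0.41 ± 0.22 with all arrays. Of the 5 genes nearest to each member, leave-one-out kept 2 to 5 for HSP26, 1 to 5 for HSP42 and 2 to 5 for HSP104. Pearson correlation over the 5 levels kept 1, 1 and 2 of them, values as deposited 2 for HSP26 and 2 for HSP42, and block centring 2 and 3. The F test called 1034 genes, 145 as deposited, 582 without the dye term, 3 unmoderated and 599 to 1886 in leave-one-out, the lowest without MA-A3 over MA-A1 and the highest without MA-A0 over MA-A8. Uncentred values shifted the median of all genes to 0.28 in MA-A0 and -0.14 in MA-A1.

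Genes differing numbered 18 in MA-A0, 228 in MA-A1, 936 in MA-A3, 191 in MA-A4 and 179 in MA-A8. In that order they numbered 5, 5, 176, 4 and 15 as deposited and 0, 0, 579, 3 and 0 unmoderated. Without the dye term MA-A0, MA-A1, MA-A4 and MA-A8 had 7, 30, 66 and 82. The robust prior gave 32 in MA-A0, block centring 278 in MA-A8, exchanging the lines of MA-A0 over MA-A8 gave 648 in MA-A0 and 5 in MA-A8, and negating that array 375 in MA-A0. Leave-one-out ranges were 0 to 435, 0 to 571, 565 to 1237, 38 to 311 and 30 to 278.

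List counts by the F test, in the order Hsp70, Hsp90, mitochondrial, aggregate sorting, regulators, general stress and ubiquitin, were 4, 2, 2, 1, 2, 20 and 1. Unmoderated variances gave 0 in each. As deposited, the first was 1 and the others except general stress 0. Without the dye term Hsp70, Hsp90, mitochondrial and regulators had 1 each and ubiquitin 0. Block centring gave mitochondrial 4, aggregate sorting 2, regulators 4 and ubiquitin 2. Exchanging the lines of MA-A0 over MA-A8 gave Hsp90 4, mitochondrial 4, aggregate sorting 3, regulators 5 and ubiquitin 2, and negating it the same but for mitochondrial. Genes on all 10 arrays gave Hsp90 4, aggregate sorting 2 and ubiquitin 2, and the robust prior aggregate sorting 2 and ubiquitin 2. Leave-one-out ranges were 0 to 5, 0 to 5, 0 to 5, 1 to 4, 1 to 5, 18 to 22 and 0 to 3. Of the 34 named list genes 16 passed, each was lost under at least 1 alternative (all 16 unmoderated), and none reversed. The causes were not tested. Each ratio already pairs 2 lines on 1 array, and no further pairing was possible because any 2 lines met on 1 array only. Centring on all rows, added after the data were seen, moved none of these counts over 1.5 times, nor did genes on at least 6 arrays.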

Other observations

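Besides HSP104, the gene SSA4 was also spotted as a control, and its separate and repeated rows had a cosine of 0.95 over the 10 arrays. The root mean square difference between these rows was 0.363 for SSA4 and 0.359 for HSP104. The ratios of SSA4 were larger, with a root mean square of 1.08 against 0.435. TPO1, the nearest fitted gene on one side of HSP104 on chromosome XII, encodes a polyamine transporter. It was at -1.02 in MA-A3 and 0.64 in MA-A8, against -0.00 and 0.31 for HSP104. PAU17, the nearest fitted gene on the other side, was at -0.11 in MA-A3 and 0.08 in MA-A8.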
